A study of Saccharomyces cerevisiae with 6 samples.

Results

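The genes of sulfate assimilation and methionine metabolism were followed in budding yeast (Saccharomyces cerevisiae) exposed to methanol. The set was a list of 39 genes, taken by gene name from the pathway. No measured value enters the rule, but the list was drawn up with earlier results of these data known. The array's annotation gave a spot for 38 of the 39, and 33 had a ratio on all 3 arrays and were tested. SUL2, a sulfate permease gene, is not analysed here, and MET2, MHT1, STR2, MMP1 and MET31 had a ratio on 2 arrays. Strain S288C, a haploid laboratory strain, was grown with shaking at 25 °C in YPD, a rich medium of 2% polypeptone, 1% yeast extract and 2% glucose. Treated cultures received methanol to a final 5% at an optical density of 1 and were collected after 2 h. Control cultures reached the same density and then grew 2 h with no addition. Each of the 3 arrays, from independent biological samples, held poly(A) RNA of a treated culture labelled with Cy5 and of a control culture labelled with Cy3.

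Yeast takes up sulfate, activates it with ATP, reduces it to sulfite and then to sulfide, and joins the sulfide to a homoserine ester to give homocysteine. Homocysteine is methylated to methionine, or exchanged with cysteine by transsulfuration. Methionine becomes S-adenosylmethionine, the methyl donor of the cell, and its by-products S-adenosylhomocysteine and methylthioadenosine are recycled by the methyl cycle and the salvage pathway. The transcription factor Met4, with Met28, Cbf1, Met31 and Met32, drives most of these genes, and the ubiquitin ligase subunit Met30 holds Met4 in check when sulfur compounds are plentiful.

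Values are log2 ratios relative to the median gene of the same array, read as methanol over untreated. That direction is not stated in the deposited table; it is the likely one, because the labels give the Cy5-labelled treated sample as channel 1. The log base, also unstated, was taken as 2. The dyes were not swapped, so a dye effect of a gene stays in its ratio. Each array was scanned at high and low laser power, and the mean of both scans was 1 replicate. A gene was called higher or lower at a Benjamini-Hochberg adjusted p under 0.05 in limma, a linear model with a shared estimate of the spread, fitted over the 4336 genes with a ratio on all 3 arrays. Values after ± are SDs over n = 3 arrays, intervals are 95% intervals from limma, and each adjusted p is from limma. Ratios in whole cultures cannot tell fewer cells of a type from less RNA per cell. Ratios existed for 5166, 4399 and 5339 of the 5379 named genes on replicates 1, 2 and 3. Pearson's r between arrays across the 4336 genes, which are not independent, lay between 0.821 and 0.888. The alpha-cell genes MF(ALPHA)2 and STE3 had values in all 6 scans, whereas MFA1, MFA2 and STE2 of a cells had values in 2 or 3. MF(ALPHA)2 (−2.41 ± 0.10) and STE3 (−0.94 ± 0.39) were themselves called lower, and their part in the members' ratios was not tested. MF(ALPHA)1 and BAR1 are not analysed here.

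After methanol the set moved in both directions. Genes of permeases for organic sulfur compounds and the regulator genes MET28 and MET30 rose. So did MET17 and MET6, of enzymes that make homocysteine and methionine. SAM4, of another enzyme that makes methionine from homocysteine, fell, as did MET22, the regulator gene CBF1 and the salvage genes MDE1 and MRI1. Of the 33 genes tested, 12 rose, where 26.0% of all genes tested were called higher, and 8 fell, where 24.2% of all genes were called lower. The count of members called lower was 3 without replicate 1, where 13.7% of all genes were called lower, and 5 without replicate 3, where 17.0% were. Called genes in either direction in the fit of all 3 arrays made up 60.6% of the set and 50.3% of all genes. The median log2 ratio of the set was 0.03 and that of all genes −0.01, so the set as a whole stood at the middle of the array. At least 2-fold rises were found for 4 members (MET28, YCT1, MET10 and MET17), with 7.54% of all genes called higher by this much. At least 2-fold falls were found for SAM4 and MET22, with 5.63% of all genes called lower by this much. All 3 arrays had the same sign for 27 of the 33, or 81.8%, as for 72.4% of all genes.

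**Figure D1:**
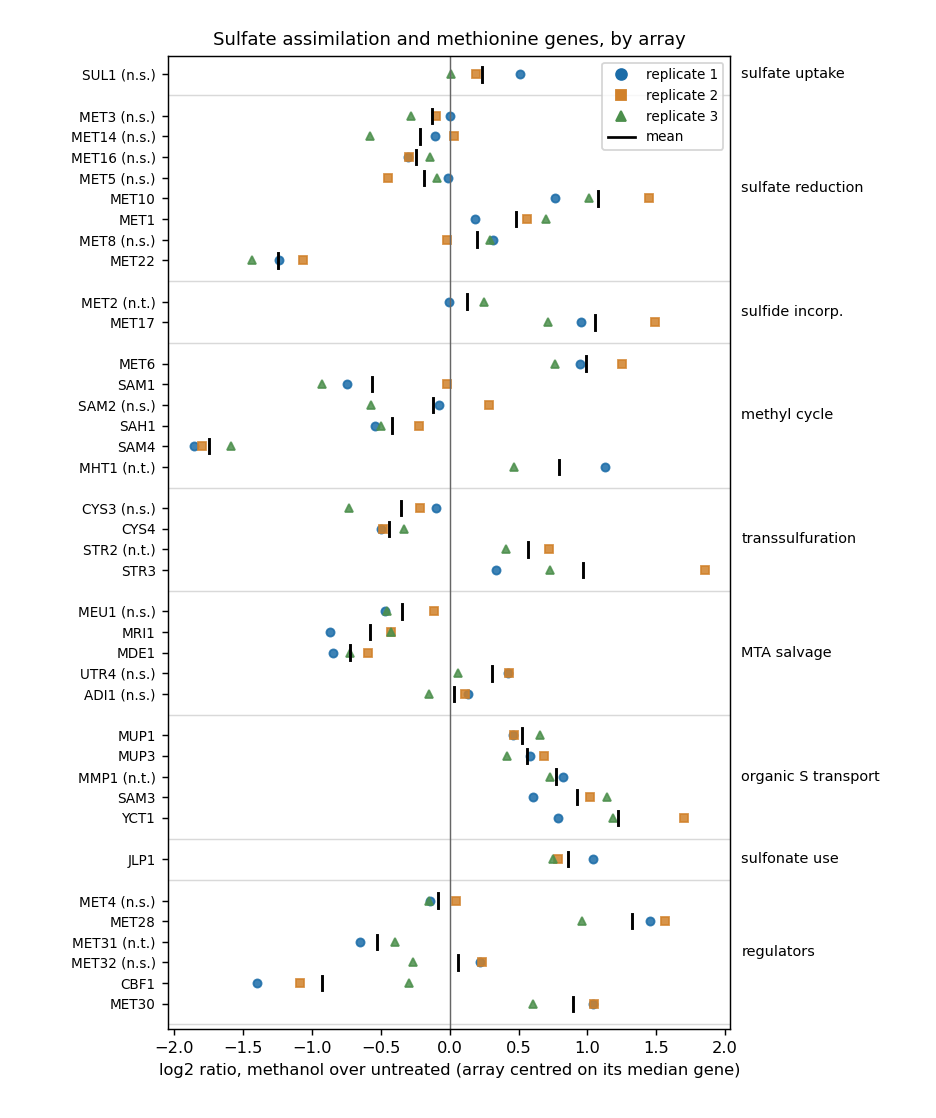
Log2 ratio (methanol over untreated, x axis) of each gene with a spot, grouped by role, with 1 symbol per array and a black bar at the mean. Names marked n.s. were tested and not called, names marked n.t. had a ratio on 2 arrays only and were not tested; all 4 tested permeases of organic sulfur lie right of 0 on every array, and SAM4 lies farthest left with a mean of −1.75.

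**Figure D2:**
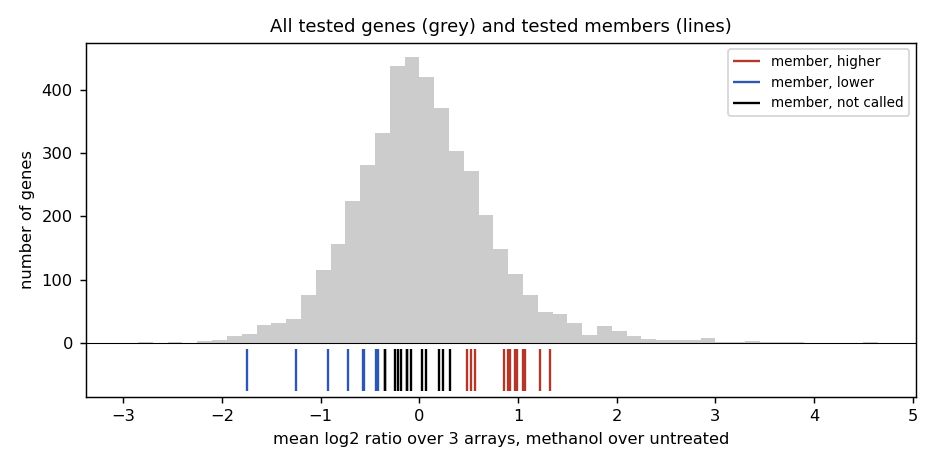
Distribution of the mean log2 ratio (x axis) of the 4336 tested genes (grey bars, number of genes on the y axis) with the 33 tested members drawn as lines below 0, red for called higher, blue for called lower and black for not called. The members run from −1.75 (SAM4) to 1.33 (MET28), whereas all genes run from −2.85 to 4.59.

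Sulfate enters through the permeases SUL1 and SUL2. SUL1 stood at 0.51, 0.19 and 0.01 on replicates 1, 2 and 3, and was not called (adjusted p = 0.197, interval −0.09 to 0.57). Of the 8 genes of sulfate activation and reduction 2 rose, 1 fell and 5 were not called, with a median of −0.16. Neither count stands above the share of all genes called, 26.0% higher and 24.2% lower. MET3, encoding ATP sulfurylase, stood at 0.00, −0.10 and −0.28, and MET14, encoding the adenylylsulfate kinase that follows, at −0.10, 0.03 and −0.58. MET16, encoding the reductase that yields sulfite, stood at −0.30, −0.29 and −0.14 (interval −0.53 to 0.04). These 3 enzymes act in sequence on the way to sulfite, and none passed the test, with adjusted p between 0.131 and 0.433. For MET16 the scans of replicate 3 differed in sign, −0.50 at high and 0.17 at low power before centring.

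Sulfite reductase, which makes sulfide, is built from the products of MET10 and MET5. MET10 stood at 0.76, 1.45 and 1.01 and rose 2.11-fold (1.07 ± 0.35, adjusted p = 0.00145). MET5 stood at −0.01, −0.45 and −0.09 (−0.18 ± 0.23) and was not called (adjusted p = 0.299). Of these subunit genes, MET10 exceeded MET5 by 0.77, 1.90 and 1.11 on the 3 arrays. An exact two-sided sign-flip test of that difference gave p = 0.25, the smallest that 3 arrays allow. In all 6 such pairs of genes were compared here, picked after their values were seen, and over them a p of 0.25 became 0.375 after Benjamini-Hochberg adjustment. The enzyme carries sirohaem, made by the products of MET1 and MET8. MET1, the methyltransferase gene, stood at 0.18, 0.56 and 0.70 and rose 1.39-fold (0.48 ± 0.27, adjusted p = 0.0265), a call that was lost without replicate 3 (adjusted p = 0.165). MET8, the gene of the last steps, stood at 0.31, −0.02 and 0.29 and was not called (adjusted p = 0.248). MET1 exceeded MET8 on 2 of the 3 arrays, and their difference (0.28 ± 0.37) was within its spread (exact sign-flip p = 0.50).

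MET22, also known as HAL2, encodes the phosphatase that removes the nucleotide by-product of sulfate reduction, and is known in yeast as a target of lithium and sodium. It stood at −1.24, −1.07 and −1.43, close to each other on all arrays, and fell to 0.421 times the control (−1.25 ± 0.18, adjusted p = 0.000353). It thus moved opposite to MET10 and MET1 of the same route.

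Sulfide is joined to O-acetylhomoserine by the product of MET17, and the ester is made by that of MET2. MET17 stood at 0.95, 1.49 and 0.71 and rose 2.07-fold (1.05 ± 0.40, adjusted p = 0.00209). Each array put it well above the median gene. MET2 stood at 0.00 and 0.25 on replicates 1 and 3, and was outside the test. When genes with a ratio on 2 arrays were admitted, it was not called (adjusted p = 0.573). Under that filter 15 of 38 members were called higher, against 23.3% of all genes, and 8 lower, against 21.5%.

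In the methyl cycle, 1 of the 5 tested genes rose, 3 fell and 1 was not called, with a median of −0.42, where 26.0% of all genes were called higher and 24.2% lower. Of the 3 falls, those of SAM1 and SAH1 were lost without replicate 1 or without replicate 3, which left 1, SAM4. MET6, encoding the cobalamin-independent methionine synthase that methylates homocysteine with a folate-bound carbon, stood at 0.94, 1.25 and 0.77. It rose 1.98-fold (0.99 ± 0.25, adjusted p = 0.00126). SAM4 encodes another methyltransferase for homocysteine, which takes its methyl group from S-adenosylmethionine. SAM4 stood at −1.86, −1.79 and −1.59, each below any other member on that array, and fell to 0.298 times the control (−1.75 ± 0.14, adjusted p = 8.56e-05). Of the 4336 genes tested it had the 25th lowest ratio, or the 25th highest if the direction of the table is the opposite. MET6 and SAM4, whose products both make methionine from homocysteine, lay 2.80, 3.05 and 2.36 apart on the 3 arrays (2.73 ± 0.35, exact sign-flip p = 0.25, the smallest possible). MHT1, whose product uses S-methylmethionine for the same reaction, stood at 1.12 and 0.47 on replicates 1 and 3. It was called higher when genes of 2 arrays were admitted (adjusted p = 0.0279).

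SAM1 and SAM2 encode isoenzymes of S-adenosylmethionine synthetase with similar sequences, so their spots may share signal. SAM1 stood at −0.75, −0.02 and −0.93, and was called lower (−0.56 ± 0.48, adjusted p = 0.0383), with replicate 2 at the median gene. The call on SAM1 was lost with genes of 2 arrays admitted (adjusted p = 0.0526), without replicate 1 (0.211) and without replicate 3 (0.218). SAM2 stood at −0.08, 0.29 and −0.57 and was not called (adjusted p = 0.594). SAM2 lay above SAM1 by 0.67, 0.31 and 0.35 on the 3 arrays (0.44 ± 0.20, exact sign-flip p = 0.25, the smallest possible). SAH1, encoding the hydrolase that clears S-adenosylhomocysteine, stood at −0.54, −0.23 and −0.50 and fell to 0.747 times the control (−0.42 ± 0.17, adjusted p = 0.0295). That call was lost with the high-power scans alone (adjusted p = 0.0668), with the high-power value taken first (0.0638), without replicate 1 (0.178) and without replicate 3 (0.145).

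Transsulfuration runs in both directions in yeast. CYS4 and CYS3 encode the enzymes that carry sulfur from homocysteine to cysteine. CYS4 stood at −0.50, −0.49 and −0.33 and fell to 0.738 times the control (−0.44 ± 0.09, adjusted p = 0.0204), a call that was lost without replicate 1 (adjusted p = 0.129) or replicate 3 (0.0653). CYS3 stood at −0.10, −0.22 and −0.73 and was not called (adjusted p = 0.0985), although it was among genes with values in all 6 scans (0.0334). STR2 and STR3 encode the enzymes of the opposite direction, from cysteine to homocysteine. STR3 stood at 0.33, 1.85 and 0.73 and was called higher (0.97 ± 0.79, adjusted p = 0.0182). Its mean rests on replicate 2, and without that array it was 0.53 (adjusted p = 0.0153). STR2 stood at 0.72 and 0.41 on replicates 2 and 3, and with genes of 2 arrays admitted it was called higher (adjusted p = 0.0412). Of the 3 tested genes of transsulfuration 1 rose, 1 fell and 1 was not called, where 26.0% of all genes were called higher and 24.2% lower. Every value of CYS3 and CYS4 was below 0 and every value of STR2 and STR3 above it. Of all genes tested, 72.4% had the same sign, up or down, on all 3 arrays. The difference between these directions was not tested. STR2 and STR3 had values at high power only, whereas CYS3 and CYS4 had values in all 6 scans.

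Methylthioadenosine, left over from polyamine synthesis, is returned to methionine by the salvage pathway. Of its 5 genes 2 fell, 0 rose and 3 were not called, with a median of −0.35, where 24.2% of all genes were called lower and 26.0% higher. MEU1, encoding the phosphorylase of the first step, stood at −0.47, −0.12 and −0.45 and narrowly missed the threshold (adjusted p = 0.0636, interval −0.66 to −0.03), and it was called lower without replicate 2 (0.0158) and under some other settings. MRI1, the gene of the isomerase that follows, stood at −0.87, −0.43 and −0.43 and fell to 0.671 times the control (−0.57 ± 0.26, adjusted p = 0.0124). MDE1, the gene of the dehydratase after it, stood at −0.85, −0.59 and −0.73 and fell to 0.606 times the control (−0.72 ± 0.13, adjusted p = 0.0029). Values of these first 3 steps were below 0 on every array, and 72.4% of all genes tested had the same sign, up or down, on every array. The call on MRI1 was lost without replicate 1 (adjusted p = 0.111). UTR4, encoding the enolase-phosphatase, stood at 0.43, 0.43 and 0.06 (adjusted p = 0.0973). ADI1, encoding the dioxygenase near the end of the pathway, stood at 0.14, 0.11 and −0.15 (adjusted p = 0.85, interval −0.27 to 0.33). Neither of these later genes passed the test.

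The permeases of organic sulfur compounds formed the one role group of more than 1 tested gene in which every tested gene rose. These were 4 of 4, with a median of 0.74, where 26.0% of all genes tested were called higher. With the sulfate permease gene SUL1, which was not called, counted among the transporters, 4 of 5 tested genes rose, with a median of 0.56. YCT1, the high-affinity cysteine transporter gene, stood at 0.79, 1.70 and 1.18 and rose 2.33-fold (1.22 ± 0.46, adjusted p = 0.00149). SAM3, the S-adenosylmethionine permease gene, stood at 0.60, 1.02 and 1.14 and rose 1.89-fold (0.92 ± 0.28, adjusted p = 0.00197). MUP1, the high-affinity methionine permease gene, stood at 0.46, 0.47 and 0.65 and rose 1.44-fold (0.53 ± 0.11, adjusted p = 0.01). MUP3, the low-affinity methionine permease gene, stood at 0.59, 0.69 and 0.42 and rose 1.48-fold (0.56 ± 0.14, adjusted p = 0.00836). MUP1 and MUP3 differed by −0.13, −0.22 and 0.24 on the 3 arrays, less than the spread of that difference (exact sign-flip p = 1). Their calls were lost without replicate 1 (adjusted p = 0.0619 and 0.0693), and that of MUP1 also without replicate 3 (0.0766). MMP1, the S-methylmethionine permease gene, stood at 0.82 and 0.72 on replicates 1 and 3 and was called higher with genes of 2 arrays admitted (adjusted p = 0.0122). MMP1 is similar in sequence to SAM3 and may share signal with it. JLP1, whose product releases sulfite from sulfonates, is another gene of alternative sulfur sources. It stood at 1.04, 0.79 and 0.75 and rose 1.81-fold (0.86 ± 0.16, adjusted p = 0.00152).

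Among the regulators 2 of 5 tested genes rose, 1 fell and 2 were not called, with a median of 0.06, where 26.0% of all genes were called higher and 24.2% lower. MET28, encoding a bZIP cofactor of Met4, stood at 1.45, 1.57 and 0.96 and rose 2.51-fold (1.33 ± 0.32, adjusted p = 0.000532), the highest ratio of the set. MET30, the gene of the F-box subunit that recognises Met4, stood at 1.04, 1.05 and 0.61 and rose 1.86-fold (0.90 ± 0.25, adjusted p = 0.0019). Both the cofactor and the inhibitor genes were thus higher on all 3 arrays. MET4 itself stood at −0.14, 0.05 and −0.15 and was not called (adjusted p = 0.606, interval −0.37 to 0.21). MET32, encoding a zinc-finger DNA-binding partner of Met4, stood at 0.22, 0.24 and −0.27 (adjusted p = 0.736). Its relative MET31 stood at −0.65 and −0.40 on replicates 1 and 3, and was called lower with genes of 2 arrays admitted (adjusted p = 0.0486). CBF1, encoding a helix-loop-helix protein that binds promoters of MET genes and also centromeres, stood at −1.40, −1.09 and −0.30. It fell to 0.526 times the control (−0.93 ± 0.57, adjusted p = 0.00831), with replicate 3 much nearer 0 than the others. On replicate 3 its scans gave −0.58 at high and −0.06 at low power before centring, and without replicate 1 the call was lost (adjusted p = 0.0795).

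**Figure D3:**
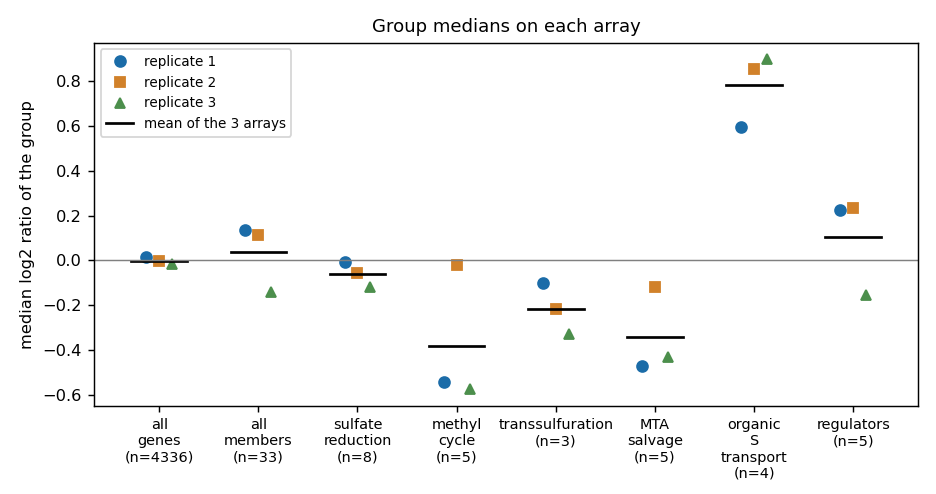
Median log2 ratio (y axis) of the tested genes of each role group on each array, with 1 symbol per array, a bar at the mean of the 3 arrays and the number of tested genes below each name; groups with 1 tested gene are left out. The organic sulfur permeases stand at 0.59, 0.85 and 0.90, and no other group shown reaches 0.3 on any array.

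Among the role groups of more than 1 tested gene, the organic sulfur permeases had the highest median on each array. Medians of the organic sulfur permeases were 0.59, 0.85 and 0.90 on replicates 1, 2 and 3. Medians of the methyl cycle were −0.54, −0.02 and −0.57, and those of the salvage genes −0.47, −0.12 and −0.43. Both of these groups were thus below the median gene on every array, and nearest to it on replicate 2. Sulfate reduction stood at −0.01, −0.06 and −0.12, transsulfuration at −0.10, −0.22 and −0.33 and regulators at 0.22, 0.24 and −0.15. In each of these, genes that rose and fell stood within the same group. The methyl cycle lay above sulfate reduction on replicate 2 and below it on replicates 1 and 3. The groups hold 3 to 8 tested genes, and no test was made between them.

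Replicate 2 gave the highest value of the 3 arrays for 19 of the 33 genes, or 57.6%, whereas it did so for 38.1% of all genes tested. It also had the fewest genes with a ratio. Without that array 12 members rose and 9 fell, where 26.7% and 24.8% of all genes were called higher and lower. Pearson's r between arrays over the 33 members, a description only, lay between 0.865 and 0.893.

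Bright and dim spots did not hold the same members. Per the labels the low-power scan was made for spots too bright at high power, and a gene with a low-power value on all 3 arrays was taken as brighter. Of the 13 members with one on all 3 arrays, 3 rose and 7 fell (median −0.42), while 24.5% of all such genes were called higher and 25.9% lower. Of the 8 members with none on any array, 4 rose and 0 fell (median 0.39), while 28.4% of all such genes were called higher and 21.1% lower. The part of brightness in the members' ratios was not tested. Within an array, the scans of a member differed by a median of 0.0915 on the log2 scale over 60 pairs, and those of all named spots by 0.115. Pairs differed by over 0.3 in 6 of the 60 cases, and in 12.8% of all pairs.

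**Figure D4:**
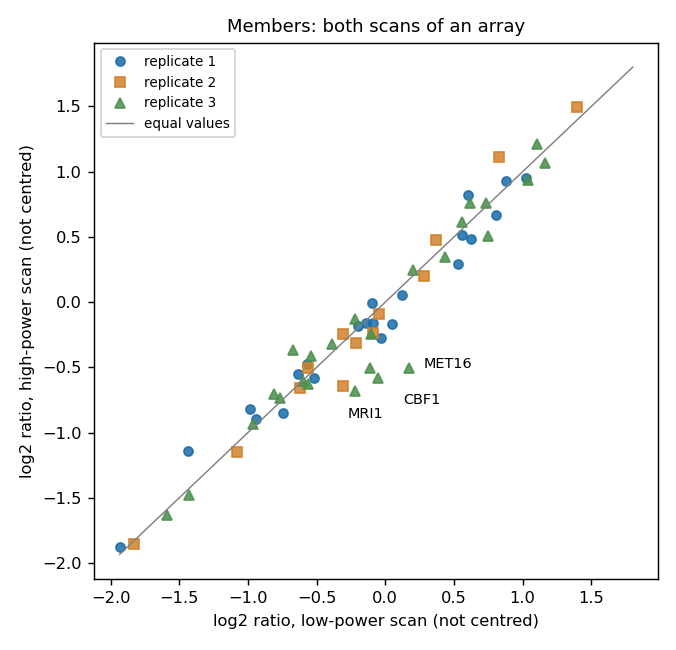
Log2 ratio at high laser power (y axis) against that at low power (x axis), before centring, for each member and array with both values (60 pairs, 1 symbol per array; the line marks equal values). Most points lie near the line, and MET16, CBF1 and MRI1 on replicate 3 lie farthest below it, with a largest difference of 0.68 for MET16.

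Several members lie next to each other in the R64 reference gene order. SAM3 and SAM4 are adjacent on chromosome XVI. Their ratios lay 2.46, 2.82 and 2.73 apart on the 3 arrays (2.67 ± 0.19, exact sign-flip p = 0.25, the smallest possible). The permease gene was higher and its neighbour, the methyltransferase gene, lower on each array. On chromosome XII, the stretch from MHT1 to YCT1 holds 7 protein-coding genes in the reference, 4 of them members (MHT1, MMP1, JLP1 and YCT1). This stretch was singled out after its values were seen. The 3 that lie between them are GTT2, a glutathione transferase gene (1.05 ± 0.24, adjusted p = 0.000967), HSU1 (0.67 ± 0.16, adjusted p = 0.00452) and YLL056C (1.17 ± 0.69, adjusted p = 0.00564). All 7 had only values above 0, and the 5 with a ratio on 3 arrays were each called higher. Of all genes tested, 26.0% were called higher, and 72.4% had the same sign, up or down, on all 3 arrays.

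A list of 38 other genes around these pathways was also read from the fit over all genes. Of its 37 tested genes 11 rose and 10 fell, with 26.0% of all genes called higher and 24.2% lower, so these shares are near the background. The median was −0.11, against −0.01 for all genes. SEO1, of a putative permease, had a ratio on 2 arrays (−0.69 and −0.43). Among 3 genes of the folate-bound carbon that feeds MET6, MET13, the methylenetetrahydrofolate reductase gene, stood at 0.98, 1.10 and 1.26 and rose 2.17-fold (adjusted p = 0.000477). MET7, encoding the enzyme that lengthens the glutamate tail of folates, stood at −1.19, −0.99 and −0.68 and fell to 0.515 times the control (adjusted p = 0.0015), while MET12 was not called. MET13 and MET7 thus moved apart on every array. Homoserine supply had 2 of 4 genes lower and 0 higher, where 24.2% of all genes were called lower and 26.0% higher. The 2 were HOM3 of aspartate kinase (−0.60 ± 0.35, adjusted p = 0.0159) and HOM6 of homoserine dehydrogenase (−0.39 ± 0.19, adjusted p = 0.041).

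Genes whose products use S-adenosylmethionine or its decarboxylated form went both ways, 2 higher and 3 lower of 6. Among all genes tested, 26.0% were called higher and 24.2% lower. OPI3, encoding the methyltransferase of the last steps to phosphatidylcholine, stood at 2.36, 3.12 and 2.35 and rose 6.10-fold (2.61 ± 0.44, adjusted p = 7.14e-05). CHO2, of the first methylation on that route, rose 1.74-fold (0.80 ± 0.20, adjusted p = 0.00244). ERG6, the sterol methyltransferase gene, fell by 0.73 on the log2 scale (adjusted p = 0.00589). The polyamine genes SPE3 (−0.72 ± 0.16, adjusted p = 0.00324) and SPE4 (−0.53 ± 0.23, adjusted p = 0.0152), whose reactions release methylthioadenosine, fell as well. SPE2, which makes decarboxylated S-adenosylmethionine, was not called (−0.04 ± 0.41).

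Of 8 genes of glutathione and cysteine breakdown, 2 rose, 1 fell and 5 were not called. Neither count stands above the share of all genes called, 26.0% higher and 24.2% lower. OPT1, a glutathione permease gene, stood at 0.63, 1.04 and 1.06 and rose 1.88-fold (adjusted p = 0.00169), and ECM38 of gamma-glutamyl transferase rose 1.43-fold (adjusted p = 0.0141). GSH2 of glutathione synthetase fell by 0.87 (adjusted p = 0.00157). Among reductants and NADPH supply, 2 of 4 rose and 1 fell, beside the same shares of all genes. TRX2, a thioredoxin gene, rose by 0.98 ± 0.34 (adjusted p = 0.00199), and ZWF1, of glucose-6-phosphate dehydrogenase and also known as MET19, by 0.84 ± 0.27 (adjusted p = 0.00268). TRR1, of thioredoxin reductase, fell by 0.56 (adjusted p = 0.0106).

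Of 8 tested other sulfur genes, 4 rose, 1 fell and 3 were not called, where 26.0% of all genes were called higher and 24.2% lower. PDC6, the gene of a minor pyruvate decarboxylase known to be made under sulfur limitation, stood at 2.16, 1.35 and 1.18 and rose 2.95-fold (adjusted p = 0.000747). SSU1, the sulfite pump gene, rose 2.25-fold (1.17 ± 0.38, adjusted p = 0.00121), and SOA1, a transporter gene for sulfur compounds, 1.73-fold (0.79 ± 0.22, adjusted p = 0.00274). HSU1, named above, completes the 4. IRC7, of a cysteine-handling lyase, stood at −0.81, −0.90 and −0.95 and fell to 0.542 times the control (adjusted p = 0.00108). Of the partners of Met30 in its ubiquitin ligase, 1 of 4 fell and 0 rose, near the 24.2% of all genes called lower. It was CDC53, the cullin gene (−0.54 ± 0.17, adjusted p = 0.011).

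**Figure D5:**
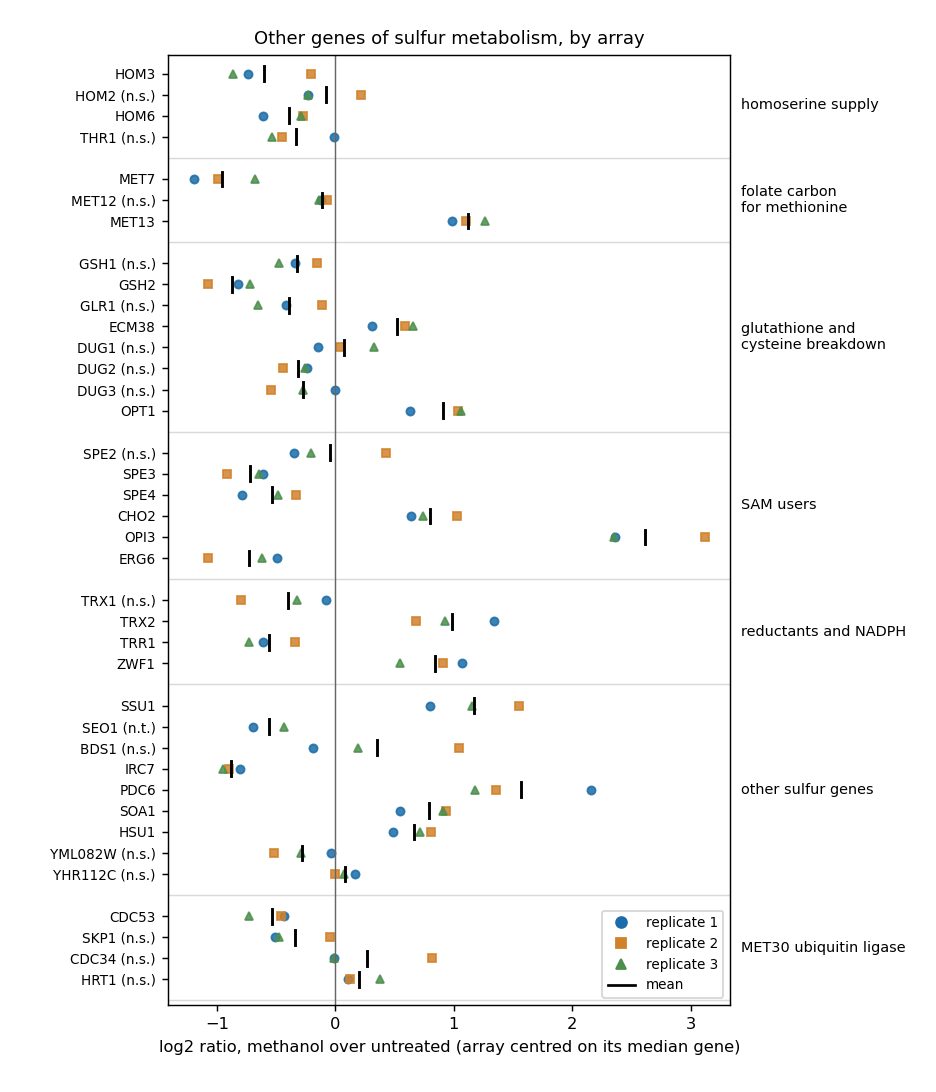
Log2 ratio (methanol over untreated, x axis) of 38 other genes of sulfur metabolism in 7 groups, with 1 symbol per array and a black bar at the mean; names marked n.s. were tested and not called and n.t. marks a gene with a ratio on 2 arrays. OPI3 stands farthest right with a mean of 2.61, and MET7 farthest left with −0.96.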

How the data were processed

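Poly(A) RNA of methanol-treated (Cy5) and untreated (Cy3) yeast was hybridised to 2-colour arrays, 3 in all, each scanned at high and low laser power. The deposited values are log ratios, read as log2; per the labels, the authors ran LOWESS on spots with flag 0. Scanner software and build are not given in the sources used here. Log base and direction are not stated with the values, and scan medians lay between −0.03 and 0.01. Of 6912 spots, 5446 had 1 gene in the platform annotation, 0 had several and 1466 none; all 5446 identifiers matched R64. No intensities were used, so no background filter was possible; the number of arrays limits the precision. Scans were averaged per spot, spots per gene, and arrays centred on the median gene. Genes with 3 values were tested with limma 3.58.1 (R 4.3.3, lmFit and eBayes, intercept against 0). A run on simulated data came first. It held a far smaller share of changed genes than was called here, so it is not used as support. Every member is named, and of the other pathway genes those called. The members and lists were chosen with earlier results of these data known.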

Additional observations from a re-analysis of the deposited data

How the results depend on the processing

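Directions and calls of the 33 tested members were recomputed with other scans, scan merging, centring, filters, weights and variance models, and without each array. With low-power scans alone, 1710 genes and 13 members could be tested: 431 and 485 genes were called higher and lower, 3 members rose and 8 fell, the median of the members was −0.47, and that of sulfate reduction, then MET22 alone, −1.30. With values in all 6 scans (1596 genes, 13 members) these were 428, 517, 3, 9, −0.42 and −1.25, and the salvage median was −0.57. In both, fewer genes entered. With values on at least 2 arrays, the sulfide incorporation median was 0.59 and that of transsulfuration 0.11, since MET2 and STR2 entered. Without 1 array at a time, genes called higher numbered 692 to 1156 and lower 594 to 1074, members called lower 3 to 9, and members called higher 10 to 12; the median of sulfate reduction lay between −0.20 and −0.043 and that of transsulfuration between −0.42 and −0.16. The lowest gene counts were those without replicate 1. Members near 0 that were not called turned sign: ADI1 (−0.021 to 0.12), MET32 (−0.021 to 0.23) and SAM2 (−0.32 to 0.11) when 1 array was left out, and ADI1 without centring (−0.0088); the cause was not tested. MEU1 became called lower with low-power scans alone, no centring, all 6 scans, array weights and without replicate 2, and CYS3 with all 6 scans. Without replicate 1, 7 members lost their call (SAM1, SAH1, CYS4, MRI1, MUP1, MUP3 and CBF1). Without replicate 3, 5 did (SAM1, SAH1, CYS4, MUP1 and MET1, the last with adjusted p = 0.165), and without replicate 2, 0 did. With robust variance no member's call changed. Each ratio already compares the treated and control cultures of 1 array, so this pairing is part of the fit, and the series has a single group.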
